A study of Mus musculus with 34 samples.

Results

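Alb, Afp, Ttr, Rbp4, Hp, Hpx, C3, Crp, Saa1 and Ahsg encode proteins that hepatocytes secrete into plasma, among them carriers, scavengers and acute phase proteins. These 10 genes, of 22380 protein-coding genes, were chosen by what their products do, and the binding of HDAC3, PROX1 and HNF4α was read in a window around each gene. A window ran from 50 kb upstream of the transcription start site (TSS) to 2 kb past the gene end, and a peak belonged to it if its centre fell inside. The 10 windows held 54 of the 28631 HDAC3 or PROX1 peaks and 45 of the 24253 HNF4α peaks. HDAC3 and PROX1 peaks with identical coordinates in both lists are called co-bound, peaks in 1 list only are called HDAC3-only or PROX1-only, and a co-bound peak is called triply bound if 50% or more of its length lay under an HNF4α peak.

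The peaks came from chromatin immunoprecipitation followed by sequencing (ChIP-seq) of livers of male C57B/6 mice, 10 weeks old, taken at zeitgeber time 10 (ZT10, 10 h after lights on). HDAC3 and PROX1 were each precipitated in 3 control liver libraries, for which the labels give no allele or virus. The HNF4α list names no sample, and was taken here as that of the 2 control libraries labelled HNF4A floxed, from mice with a floxed Hnf4a allele and without Cre, which by the study's methods for floxed controls received an adeno-associated virus with GFP under the hepatocyte promoter TBG. HDAC3 and PROX1 were also precipitated in floxed livers, 2 libraries each, but those libraries are not used here, so the HNF4α peaks and the HDAC3 and PROX1 peaks compared come from different groups of mice. Whole livers were cross-linked, so a peak is an average over the cells of the organ, and because peak lists hold no expression values the tissue could not be checked against marker genes. Each list pools its libraries: 21247 HDAC3, 27423 PROX1 and 24253 HNF4α peaks on mouse genome build mm9, with no value per replicate. Every HDAC3 and PROX1 peak is 200 bp long, and the HNF4α peaks are 85 to 168 bp wide. The part of a peak covered therefore also depends on the width of the HNF4α peak. The depth behind a peak is unknown, a peak absent from a list, such as HDAC3 at a PROX1-only peak, may have fallen below the authors' limits, and no difference could be tested against the spread between livers. Intervals are 95% Wilson intervals. They hold counting error alone, over peaks or genes, and treat neighbouring peaks as independent.

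HNF4α is a nuclear receptor that binds DNA on its own and drives much of the hepatocyte programme, plasma proteins included. HDAC3 is a histone deacetylase that reaches chromatin in complexes with the corepressors NCoR and SMRT and with DNA-binding factors, and PROX1 is a homeodomain protein that acts in liver as a corepressor of nuclear receptors, HNF4α among them. Binding of HDAC3 or PROX1 at a gene does not by itself tell whether the gene is repressed, and expression was not analysed here. The liver makes acute phase proteins in amounts that rise or fall with inflammation, a response carried largely by C/EBP and STAT factors, while HNF1 and HNF4α are known regulators of the basal expression of plasma proteins such as albumin.

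Of the triply bound peaks of each gene, the one under the highest HNF4α score was taken. Crp has no triply bound peak, and Afp shares this peak with Alb. Among the other genes, the peaks of the 6 where that score was highest are shown. They are written on the strand of the gene, and capitals mark matches to the motifs searched on both strands: HNF4 (CAAAGTCCA with at most 1 mismatch), C/EBP (TTGCNNAA), HNF1 (GTTAATNAT), STAT (TTCNNNGAA) and the D-box (TTATGTAA).
Ahsg, 10.4 kb upstream, chr16:22881578-22881777, plus strand: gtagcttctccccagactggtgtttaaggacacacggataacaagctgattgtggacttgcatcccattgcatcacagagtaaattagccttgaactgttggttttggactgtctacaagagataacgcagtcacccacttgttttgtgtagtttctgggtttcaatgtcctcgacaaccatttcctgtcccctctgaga
Alb, 13.1 kb upstream, chr5:90876732-90876931, plus strand: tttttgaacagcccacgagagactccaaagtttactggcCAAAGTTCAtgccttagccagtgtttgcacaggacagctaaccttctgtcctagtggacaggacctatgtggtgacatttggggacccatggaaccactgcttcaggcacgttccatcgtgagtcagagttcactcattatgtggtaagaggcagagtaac
Hp, 5.88 kb upstream, chr8:112108855-112109054, minus strand: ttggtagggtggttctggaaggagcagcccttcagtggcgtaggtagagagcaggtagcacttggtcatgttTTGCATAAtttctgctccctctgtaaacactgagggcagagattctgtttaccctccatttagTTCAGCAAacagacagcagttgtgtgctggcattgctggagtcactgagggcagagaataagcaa
Hpx, 0.093 kb upstream, chr7:112748623-112748822, minus strand: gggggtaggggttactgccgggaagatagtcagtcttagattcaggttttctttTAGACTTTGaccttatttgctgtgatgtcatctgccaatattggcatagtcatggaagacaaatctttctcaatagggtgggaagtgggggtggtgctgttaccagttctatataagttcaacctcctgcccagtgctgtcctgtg
C3, 0.131 kb upstream, chr17:57367590-57367789, minus strand: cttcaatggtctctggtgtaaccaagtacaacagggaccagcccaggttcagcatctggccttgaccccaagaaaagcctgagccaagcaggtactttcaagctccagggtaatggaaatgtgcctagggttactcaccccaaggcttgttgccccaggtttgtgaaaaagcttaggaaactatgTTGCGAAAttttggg
Saa1, 4.28 kb downstream, chr7:53993968-53994167, minus strand: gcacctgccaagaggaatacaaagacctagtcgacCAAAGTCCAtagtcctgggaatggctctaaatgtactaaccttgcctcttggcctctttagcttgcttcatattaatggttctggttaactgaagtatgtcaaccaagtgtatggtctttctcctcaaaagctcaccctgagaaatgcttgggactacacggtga
Alb and Saa1 each held 1 HNF4 match, CAAAGTTCA and CAAAGTCCA, the latter with no mismatch, and Hpx held 1 on the other strand, TAGACTTTG. Hp held 2 C/EBP matches, TTGCATAA and TTCAGCAA, and C3 held 1, TTGCGAAA. The Ahsg peak, which carried the highest HNF4α score of the group, held none of the searched letters. All 6 were 200 bp long and held no exon bases, apart from 8 in the Hpx peak. The GC content ran from 45% in Saa1 to 49.5% in C3.

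Peaks at the 2 ends of the comparison were also chosen for display, after their values were seen. The first is the HNF4α peak at the Alb promoter, where neither HDAC3 nor PROX1 was called, and the second is the co-bound peak at the Saa1 promoter, where HNF4α was not called.
Alb promoter, HNF4α without HDAC3 or PROX1, chr5:90889646-90889804, plus strand: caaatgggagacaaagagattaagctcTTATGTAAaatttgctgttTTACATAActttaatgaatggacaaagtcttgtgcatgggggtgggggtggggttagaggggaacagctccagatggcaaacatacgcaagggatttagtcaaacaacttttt
Saa1 promoter, HDAC3 and PROX1 without HNF4α, chr7:53998444-53998643, minus strand: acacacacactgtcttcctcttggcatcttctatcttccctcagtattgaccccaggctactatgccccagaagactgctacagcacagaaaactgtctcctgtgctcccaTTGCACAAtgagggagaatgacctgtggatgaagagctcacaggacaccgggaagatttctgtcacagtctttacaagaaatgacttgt
The Alb promoter peak is 159 bp long, has a GC content of 40.9% and held 2 D-box matches, 1 on each strand. The D-box is bound by PAR bZIP factors, of which DBP takes its name from the D site of the albumin promoter. Whether either match is that site was not tested. The Saa1 promoter peak held 1 C/EBP match, TTGCACAA.

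All 10 genes had a co-bound peak in its window, against 38.4% of all protein-coding genes, and 7 of them had 4 or more, against 11.8%. A triply bound peak was found at 9, all but Crp, against 31.1% of all genes, and an HNF4α peak at all 10, against 49.7%. A PROX1-only peak was found at 6, namely Alb, Rbp4, Hp, Hpx, C3 and Saa1, against 25.2%. No member had an HDAC3-only peak, against 7.4% of all genes. The member windows, with a median length of 60.6 kb against 67.4 kb for all genes, held 2 to 8 co-bound peaks with a median of 4.5, where the median over all genes was 0. Merged, the member windows covered 582 kb and held 7.73 co-bound peaks per 100 kb, against 1.1 in the windows of all genes and 0.755 over the assembled chromosomes. The density of PROX1-only peaks was 1.55 per 100 kb against 0.404, and that of HNF4α peaks was 7.73 against 1.36. At the density of all gene windows, 0.407 HDAC3-only peaks would fall in a length equal to the member windows, so the 0 found there is near the level of the background.

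**Figure D1:**
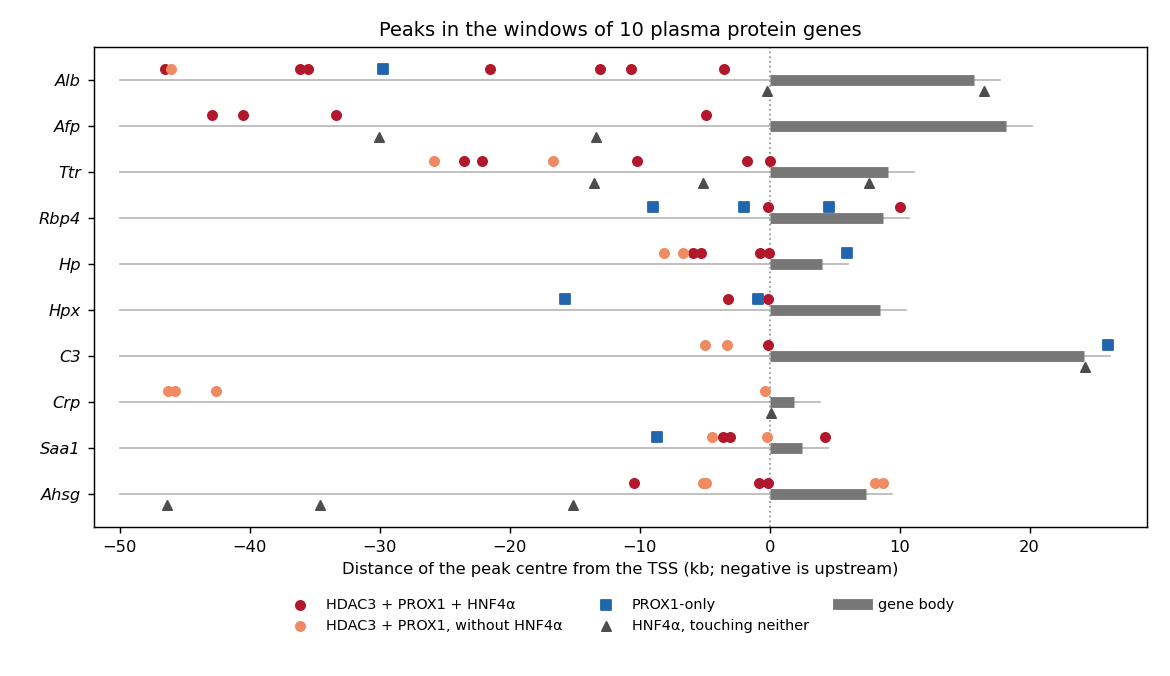
Positions of peak centres in the windows of the 10 genes, in kb from the TSS (x axis, negative is upstream) with 1 row per gene. Circles above a line are HDAC3 and PROX1 co-bound peaks, dark where HNF4α covered at least 50% of the peak, squares are PROX1-only peaks, triangles below the line are HNF4α peaks that touch neither, and thick bars are gene bodies. Counted per gene, 4 of the 48 co-bound peaks lie downstream of the promoter, and Crp has no dark circle.

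Alb (albumin, ENSMUSG00000029368.9, chr5:90889915-90905629, plus strand, mm9), the main carrier of plasma and keeper of its oncotic pressure, had the most co-bound peaks, 8, of which 7 were triply bound. All 8 were intergenic and upstream, and the nearest lay 3.51 kb from the TSS. The HNF4α scores of the 7 were 95.6 at 46.5 kb, 84.8 at 36.1 kb, 49.0 at 35.5 kb, 83.4 at 21.5 kb, 112.6 at 13.1 kb, 74.9 at 10.7 kb and 26.4 at 3.51 kb. The score is the HNF4α peak score as the authors deposited it, on a scale not given in the sources used here, and over the whole HNF4α list it ran from 20.3 to 160.2 with a median of 41.9. So 6 of the 7 stood above the list median, and the weakest lay nearest to the gene. The peak at 21.5 kb held 3 HNF4 matches, more than any other peak of the group. The co-bound peak without HNF4α, at 46 kb, held a C/EBP match. The Alb promoter carried an HNF4α peak of 59.8, centred 0.19 kb upstream, but no HDAC3 or PROX1 peak, and a further HNF4α peak without them, of 38.2, lay 16.5 kb downstream of the TSS.

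Afp (alpha-fetoprotein, ENSMUSG00000054932.3, chr5:90919740-90937933, plus strand) is the fetal counterpart of albumin, lies next to it and is silenced in the liver after birth. Its window held 4 co-bound peaks, all triply bound, and no PROX1-only peak. The windows of Alb and Afp overlap, and 3 of the 4 are also the 3 nearest upstream peaks of Alb, whose TSS is nearer to each of them. The remaining peak, outside the Alb window, lay 4.9 kb upstream, with an HNF4α score of 98.0, 1 HNF4 match and 1 C/EBP match. No peak of any list lay within 1 kb of the Afp TSS. Alb and Afp were the only genes of the group without a co-bound promoter peak.

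Ttr (transthyretin, ENSMUSG00000061808.3, chr18:20823751-20832825, plus strand) carries thyroxine and, bound to RBP4, retinol. Its window held 7 co-bound peaks and no PROX1-only peak. The 5 triply bound ones had HNF4α scores of 20.7 at 23.5 kb upstream, 30.6 at 22.1 kb, 46.6 at 10.2 kb, 58.9 at 1.7 kb and 55.6 at the promoter, where the peak was centred 0.063 kb past the TSS. The scores were thus highest next to the gene, and none reached 60. A further 3 HNF4α peaks in the window touched no HDAC3 or PROX1 peak, with scores of 32.5 at 13.5 kb upstream, 52.3 at 5.13 kb upstream and 23.1 in an intron 7.68 kb past the TSS. The promoter peak was covered to 53.5%, close to the 50% required.

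Rbp4 (retinol binding protein, ENSMUSG00000024990.6, chr19:38191110-38199811, minus strand), the retinol carrier that travels with transthyretin, had 2 co-bound peaks, both triply bound, and 3 PROX1-only peaks, the most of the group. The co-bound peaks lay at the promoter, 0.131 kb upstream, with an HNF4α score of 29.7, and 10.1 kb past the TSS, beyond the gene end, with a score of 43.3. The promoter score was below the list median and was the lowest of the triply bound promoter peaks. The PROX1-only peaks lay 1.95 kb upstream, in an Rbp4 intron 4.58 kb past the TSS, and in an intron of the neighbouring gene Pde6c 8.96 kb upstream. The peak in Pde6c, which is nearest to the Pde6c TSS, was the only PROX1-only peak of the 10 genes counted as bound by HNF4α, with a coverage of 55% and a score of 33.0.

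Hp (haptoglobin, ENSMUSG00000031722.9, chr8:112099030-112103072, minus strand), which captures free haemoglobin and rises in the acute phase, had 6 co-bound peaks within 8.1 kb of its TSS. The 4 triply bound ones scored 41.5 at 0.029 kb upstream, 55.1 at 0.742 kb, 45.7 at 5.31 kb and 85.8 at 5.88 kb, so the promoter held 2 of them and the highest score lay outside it. The 2 co-bound peaks without HNF4α, at 6.66 kb and 8.1 kb upstream, followed directly on this group, and no HNF4α peak touched them. C/EBP matches stood in 4 of the 6 co-bound peaks, and the printed peak at 5.88 kb held 2. A PROX1-only peak 5.98 kb past the TSS fell in an exon of the neighbouring gene Txnl4b.

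Hpx (hemopexin, ENSMUSG00000030895.8, chr7:112740127-112748630, minus strand), which captures free haem, had 2 co-bound peaks, both triply bound and both with an HNF4 match. The promoter peak, 0.093 kb upstream, scored 85.3 and was covered to 84%, and the peak 3.17 kb upstream scored 67.8 and was covered to 53%, the lowest coverage still counted as bound among the co-bound peaks. Hpx was the only gene of the group with a PROX1-only peak at the promoter, 0.911 kb upstream, and a second lay 15.8 kb upstream in an intron of Trim3. That second peak was touched by an HNF4α peak of 20.7 over 41.5% of its length, short of the limit. Both scavengers of haemoglobin and haem thus had a triply bound promoter, but Hp had 6 co-bound peaks and Hpx 2.

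C3 (ENSMUSG00000024164.8, chr17:57343397-57367559, minus strand), the complement component on which the activation pathways converge, had 3 co-bound peaks, at the promoter, 3.31 kb and 4.98 kb upstream. The promoter peak, 0.131 kb upstream, was triply bound with a score of 82.9 and a coverage of 78%. The peak at 3.31 kb was touched by no HNF4α peak, while the peak at 4.98 kb was covered to 42% by an HNF4α peak of 66.9 and held 2 STAT matches. With a lower limit on coverage this peak would be triply bound. A PROX1-only peak 26 kb past the TSS was nearest to the TSS of Tnfsf14 and was covered to 46.5%, and an HNF4α peak of 45.7 without HDAC3 or PROX1 lay at the gene end.

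Crp (C-reactive protein, ENSMUSG00000037942.3, chr1:174628187-174630097, plus strand), a pentraxin that is a minor acute phase protein in the mouse, was the exception in the group, with 4 co-bound peaks and none triply bound. The promoter peak, 0.316 kb upstream, was covered to 19.5% by an HNF4α peak of 62.2, and the peak 45.7 kb upstream was covered to 29.5% by an HNF4α peak of 90.5, so HNF4α was called beside both without reaching 50%. The other 2, at 46.3 kb and 42.6 kb, were touched by no HNF4α peak. The 3 distal peaks are nearest to the TSS of Dusp23. A further HNF4α peak, of 47.6, lay 0.145 kb past the TSS, inside the gene, away from HDAC3 and PROX1. HNF4α was therefore called at the Crp promoter in 2 peaks, 1 that overlapped the co-bound peak in part and 1 apart from it.

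Saa1 (serum amyloid A, ENSMUSG00000074115.3, chr7:53995871-53998350, minus strand), a major acute phase apolipoprotein in the mouse, had 5 co-bound peaks, all 5 within 4.45 kb of the TSS, of which 3 were triply bound. Their scores were 80.6 at 4.28 kb past the TSS, 70.7 at 3.01 kb upstream and 70.2 at 3.62 kb upstream, and all were above the list median. The promoter peak, 0.194 kb upstream, had no HNF4α peak touching it, and neither did the peak at 4.45 kb, which is nearer to the TSS of Saa2. Saa2 lies within the Saa1 window, and the 2 genes are close copies, so peaks here are uncertain where reads match both. A PROX1-only peak lay 8.64 kb upstream, also nearest to Saa2. Saa1 and Crp were the 2 genes of the group with a co-bound promoter peak that was not triply bound.

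Ahsg (fetuin-A, ENSMUSG00000022868.5, chr16:22892115-22899511, plus strand), a mineral-binding carrier and negative acute phase protein, had 7 co-bound peaks, of which 3 were triply bound. Their scores were 122.0 at 10.4 kb upstream, 61.7 at 0.783 kb and 103.2 at 0.105 kb. The first was the highest HNF4α score of the group, rank 145 of the whole list, and the last had rank 724. Only the Alb peak of 112.6, rank 366, stood between them. The other 4 co-bound peaks stood as 2 close pairs, at 5.14 kb and 4.93 kb upstream and at 8.1 kb and 8.69 kb past the TSS, and no HNF4α peak touched any of the 4. In turn, 3 HNF4α peaks of 24.5, 43.8 and 38.2 at 46.4 kb, 34.6 kb and 15.1 kb upstream, in the neighbouring genes Tbccd1 and Dnajb11, touched no HDAC3 or PROX1 peak.

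**Figure D2:**
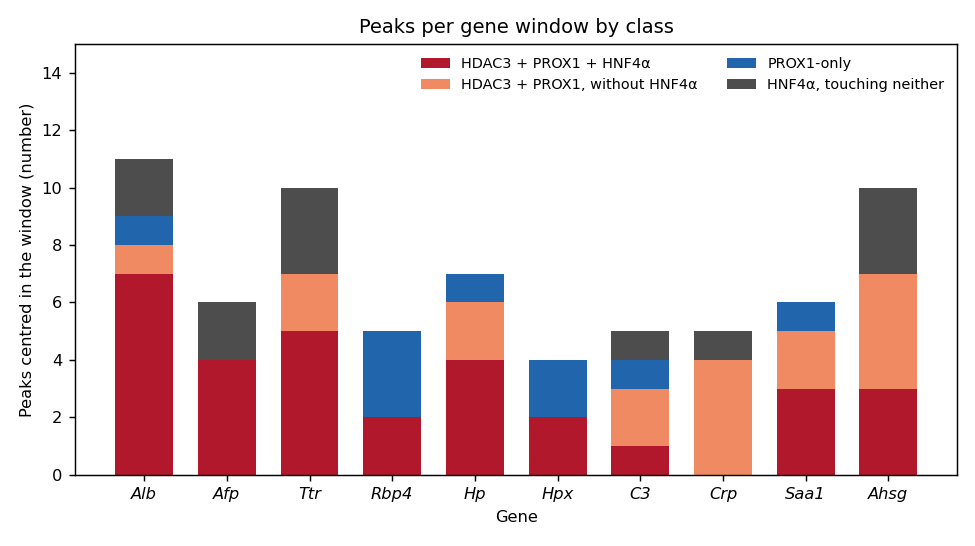
Number of peaks centred in each window (y axis) by gene (x axis), stacked by class. Alb has the tallest triply bound segment, 7 peaks, Crp has none, and Rbp4, Hp, Hpx and Saa1 have PROX1-only peaks but no HNF4α peak apart from HDAC3 and PROX1.

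Counted without repeats, the windows held 45 co-bound and 9 PROX1-only peaks and 0 of the HDAC3-only class, 3 co-bound peaks being common to the windows of Alb and Afp. HNF4α covered at least 50% of 28 of the 45 co-bound peaks, 62.2% (95% interval 47.6 to 74.9), against 61.3% (60.6 to 62) of all 20039 co-bound peaks. The interval of the 45 includes the value of the whole list, though it is wide enough to hold a share well above or below it. Of the 9 PROX1-only peaks 1 was bound by HNF4α, 11.1% (1.99 to 43.5), against 36.7% of all 7384, with an interval that also includes the value of the list. Co-bound peaks made up 83.3% (71.3 to 91) of the 54 HDAC3 or PROX1 peaks, against 70% in all, and HDAC3-only peaks 0% (0 to 6.64) against 4.22%. Of the 17 co-bound peaks without HNF4α, 14 were touched by no HNF4α peak and 3 were touched over less than 50% of their length, at C3 and, for 2 of them, Crp. The peaks nearest to the limit were those of Hpx at 53% and Ttr at 53.5% on the inside, and, on the outside, the C3 peak at 42% and PROX1-only peaks at 46.5% in the Alb and C3 windows.

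Seen from HNF4α, 31 of the 45 HNF4α peaks in the windows touched a co-bound peak, 68.9% (54.3 to 80.5) against 55.4% of the whole list. A further 4 touched a PROX1-only peak and 10 touched neither, 22.2% (12.5 to 36.3) against 31.4%. Both intervals include the value of the whole list. The HNF4α peaks were strong as a group, since 32 of the 45, 71.1% (56.6 to 82.3), scored above the list median, against 49.7% of the list. The 28 triply bound peaks scored 20.7 to 122.0 with a median of 69.0, against a median of 52.3 over all triply bound peaks. The 10 HNF4α peaks that touched neither scored 23.1 to 59.8 with a median of 41.0, against 32.5 for such peaks in the whole list. The highest of these 10 was the Alb promoter peak printed above. Every HNF4α peak above 60 in these windows therefore touched a co-bound peak, those of C3 and Crp with partial cover included. The limit of 60 was set after these scores were seen. The same share was not computed for the whole list, so this is a description only.

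**Figure D3:**
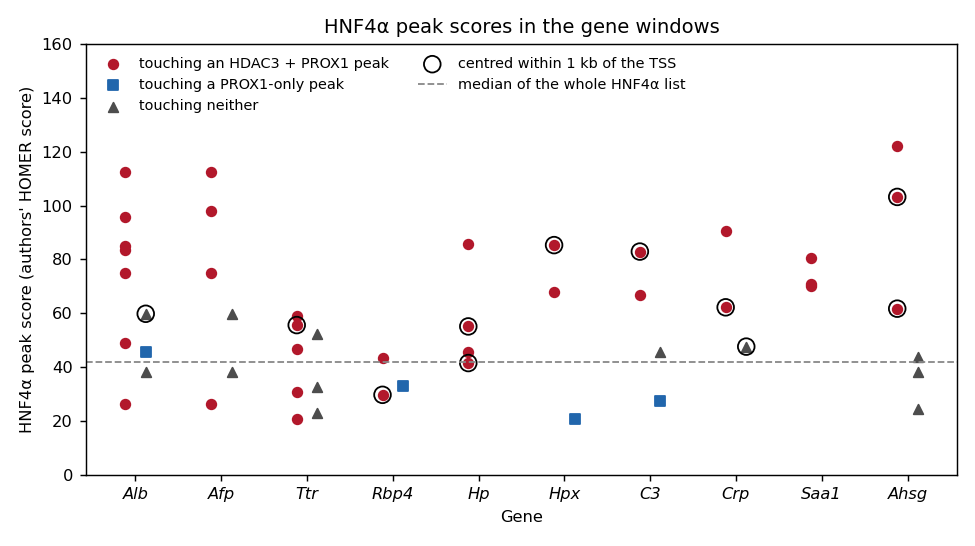
Peak scores of the HNF4α peaks (y axis, as deposited) in each gene window (x axis). Circles touch a co-bound peak, squares a PROX1-only peak and triangles neither, rings mark peaks within 1 kb of the TSS, and the dashed line is the list median of 41.9. The peaks touching neither all lie at or below 59.8, and the highest point is the Ahsg peak at 122.0. Peaks common to Alb and Afp are drawn in both columns.

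The co-bound peaks of these genes lay nearer to the TSS than co-bound peaks in the windows of all genes. Counted per gene, 10 of 48 lay within 1 kb of the TSS, 20.8% against 4.6%, and 15 lay 1 to 10 kb upstream, 31.2% against 10.7%. The share 10 to 50 kb upstream was 39.6% against 43.2%, and only 8.33% lay downstream of the promoter, against 41.5%. The gene body makes part of a window, so the downstream share also moves with gene length. Over all genes, 16233 co-bound peaks in overlapping windows give 27170 positions. A promoter peak of 1 gene can thus count again as distant from a neighbour, which lowers the promoter share of all genes. A co-bound promoter peak was present at 8 of the 10 genes, all but Alb and Afp, against 5.05% of all genes, and a triply bound promoter peak at 6, namely Ttr, Rbp4, Hp, Hpx, C3 and Ahsg, against 2.91%. An HNF4α promoter peak was present at 8, all but Afp and Saa1, against 9.38%. Co-bound peaks also stood close together: 21 of the 45 had another co-bound peak within 1 kb, 46.7% (32.9 to 60.9) against 18.8% of all co-bound peaks. Both peaks of a close pair are counted, and the interval does not allow for this. The density of co-bound peaks was also higher, 7.73 per 100 kb against 0.755 over the assembled chromosomes. Whether the closeness goes beyond that density was not tested.

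The HNF4 motif was found in 14 of the 45 co-bound peaks, 31.1% (19.5 to 45.7), against 20.9% of all co-bound peaks, whose value lies inside that interval. It stood in 12 of the 28 triply bound peaks, 42.9% (26.5 to 60.9) against 28.4% of all triply bound peaks, and in 2 of the 17 without HNF4α, 11.8% (3.29 to 34.3) against 9.05%. The intervals of these 2 shares within the group overlap. The C/EBP motif was found in 15 of 45, 33.3% (21.4 to 47.9) against 26.1%. The STAT motif was found in 5, 11.1% (4.84 to 23.5) against 9.08%. Both intervals include the value of all co-bound peaks. The HNF1 and D-box motifs were found in none of the 45, against 1.9% and 2.45% of all co-bound peaks. The interval of each, 0 to 7.87, includes these values. A match says only that these letters stand in the peak, and the absence of a match says nothing on binding of the factor.

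The promoters, taken as the 300 bp from 250 bp before to 50 bp past the TSS, were searched for the same motifs. A C/EBP match stood in 7 of the 10 promoters, those of Alb, Afp, Hp, Hpx, C3, Saa1 and Ahsg, against 10.3% of the promoters of all protein-coding genes. An HNF1 match stood in Alb and Afp, against 0.724%, and HNF4 matches in Afp, Hpx and Ahsg, against 8.09%. The D-box stood in 1 promoter, that of Alb, against 0.929%, and the TATA motif (TATAAA) in 3, Afp, C3 and Crp, against 13.4%. None held a STAT match, against 7.94%. Over only 10 genes the intervals of these shares are wide. Those of TATA, 10.8 to 60.3, and STAT, 0 to 27.8, include the values of all promoters, and those of the other motifs do not. The promoters of Ttr and Rbp4, the paired retinol carriers, held no match of any of the motifs. The 2 genes without a co-bound promoter peak, Alb and Afp, were also the 2 with an HNF1 match in the promoter. They are adjacent genes with overlapping windows, and this was seen only after the values were known. Among all genes only 5.05% have a co-bound promoter peak, and a link to the HNF1 match was not tested.

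For the wider family, 45 other genes of secreted plasma proteins (complement, protease inhibitors, carriers and further acute phase proteins) were read by the same rule. Some of the 45 lie side by side with peaks in common, so they are not independent loci. Counts and intervals over genes do not allow for this. All 45 had a co-bound peak, 44 had a triply bound peak and 44 an HNF4α peak, against 10, 9 and 10 of the 10 genes above. Serpina7, the thyroxine-binding globulin, was the gene without either of the latter, and like the genes named next it was chosen after its values were seen. A PROX1-only peak was found at 26 of the 45, and an HDAC3-only peak at 4, namely Serpina3k, C4b, Cfi and Lbp. Their median was 5 co-bound peaks a window. A co-bound promoter peak was found at 29 of the 45, 64.4% (49.8 to 76.8), against 80% (49 to 94.3) of the 10 genes, and the intervals overlap. HNF4α covered 125 of their 193 co-bound peaks, 64.8% (57.8 to 71.2), and 13 of the 193 also lie in a window of the 10 genes. The most triply bound peaks were found at C8a, a subunit of the complement membrane attack complex, with 8, and at Gc, the vitamin D carrier, and Mbl1, a mannose-binding lectin, with 7 each, the number at Alb. The density of co-bound peaks, 6.23 per 100 kb, was near the 7.73 of the 10 genes.

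**Figure D4:**
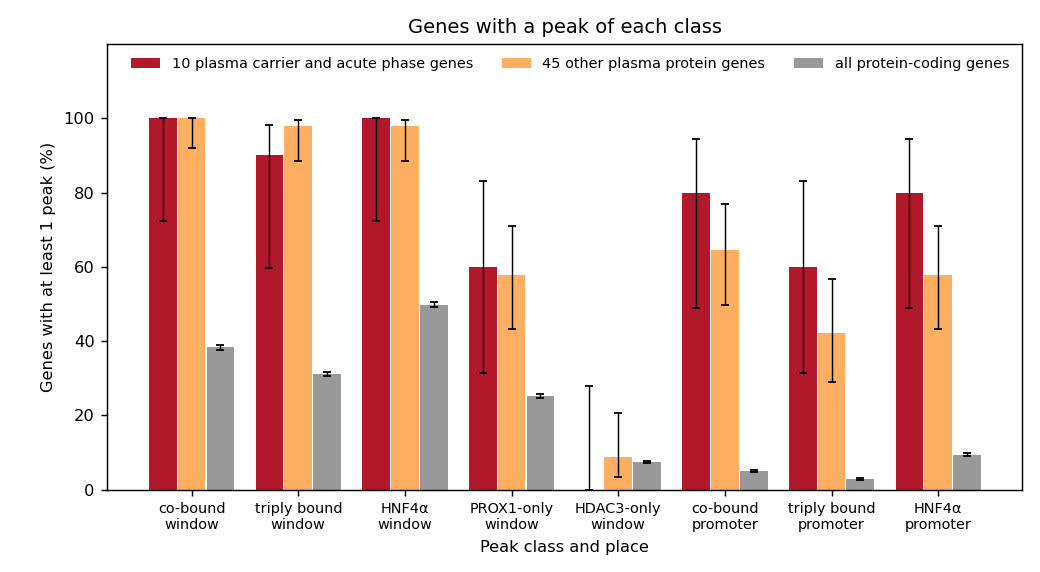
Share of genes with at least 1 peak of each class (y axis, percent) in the window or within 1 kb of the TSS (x axis), for the 10 genes, the 45 other plasma protein genes and all 22380 protein-coding genes. Error bars are Wilson 95% intervals over genes, which treat neighbouring genes as independent. Both plasma protein groups stand above all genes in every class but HDAC3-only peaks, where their intervals include the 7.4% of all genes.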

How the data were processed

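ChIP-seq peak lists of HDAC3, PROX1 and HNF4α in mouse liver were analysed. Per the study's methods, alignment to mm9 was by Bowtie 0.12.7, and the authors called peaks on pooled replicates with HOMER against IgG, above limits on depth-scaled reads. Shared HDAC3 and PROX1 peaks needed a 50% overlap and a minimum of the other factor, set below that factor's own limit for a peak. A co-bound peak may thus not have passed both limits. The study filtered the HNF4α peaks of its own overlaps on the HNF4α knockout. Whether the HNF4α list used here carries that filter is not stated. The lists hold positions, and the HNF4α list also a peak score as the authors deposited it. The lists give no depth, so precision is limited to counting peaks. RNA-seq, H3K27Ac and HNF4A knockout libraries were not analysed here.

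Gene bounds came from GENCODE vM1 on NCBIM37, the genome from which peak and promoter sequences were read. Peaks were assigned to windows starting 50 kb before a TSS and ending 2 kb beyond the gene, a promoter being within 1 kb. HNF4α counted as bound at 50% cover. Of the 45 other plasma protein genes, 43 matched by symbol and 2 by RefSeq synonym, and those with most triply bound peaks or with none of any class were to be named. Coordinates are 1-based. Assignment was tested on simulated peaks with Python 3.11.15, scipy 1.17.1 and numpy 2.4.6. The members, lists and motifs were chosen with earlier results of these data known.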

Additional observations from a re-analysis of the deposited data

How the results depend on the processing

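Of 51 values recomputed under other windows, overlaps, assignments or motif settings, 46 stayed within a set tolerance. This was 1.5 times the reported count or the 95% interval of the reported share, which is wide. Some values could not change, such as the 0 HDAC3-only peaks when counted once per gene or without Afp. Within that tolerance the HNF4α peaks ranged from 32 to 59 and the PROX1-only peaks from 7 to 12. With windows from 10 kb upstream, the co-bound peaks numbered 29 and the HNF4α peaks 28, since fewer bases are searched. With 75% of a peak covered, HNF4α bound 26.7% of the co-bound peaks, and 8 genes kept a triply bound peak, Rbp4 no longer among them. HNF4α peaks are at most 168 bp wide against 200 bp. A narrower one can thus fail the 75% limit even when it lies wholly inside the co-bound peak. With 25% or 1 bp covered, or with peaks assigned to the nearest TSS, all 10 genes had a triply bound peak, Crp included. The HNF4 motif stood in 4.44% of the co-bound peaks with 0 mismatches and in 77.8% with 2. Without Afp, whose window overlaps that of Alb, 44 co-bound peaks remained. No paired analysis was possible because each list pools its replicates. For the same reason no replicate could be left out, and no difference could be compared with the spread between livers. The share of co-bound peaks with HNF4α otherwise ranged from 51.1% to 71.1%.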
